A study of Mus musculus with 4 samples.

Results

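The RNA bound by an antibody against N6-methyladenosine (m6A) was compared between EP3 conditional knockout (cKO) and control brown preadipocytes of the mouse. The comparison uses the signal of the immunoprecipitated (IP) fraction, which carried the Cy5 dye on both arrays. The dyes of this deposited signal were already normalised within each array, so it is not independent of the other dye. A probe of the array was included when at least 0.5 of its red spots, outlier-flagged ones left out, stood well above background in cKO IP, in control IP or in both. This held for 48859 of 60684 probes (80.5%). Of these, 45288 were detected in both IP samples, 924 in cKO IP only and 2647 in control IP only.

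The cKO sample (Myf5CreEP3F/F) came from male mice with floxed EP3 alleles and Cre under Myf5, and the control sample (EP3F/F) from male mice with the floxed alleles and no Cre. Both were 8 weeks old, and cells lacking lineage markers and carrying CD29, CD34 and Sca1 were sorted from them. Each genotype was 1 sample, pooled over approximately 30 mice, so that no difference below has a replicate check. The unbound RNA left in the supernatant (Sup) of the same pools carried Cy3 on the same arrays. Fraction and dye therefore cannot be told apart when the sizes of IP and Sup differences are compared.

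Ptger3 encodes EP3, a prostaglandin E2 receptor that couples to inhibitory G proteins and lowers cyclic AMP. Myf5 is active in the lineage that gives rise to skeletal muscle and much of interscapular brown fat, so Cre under Myf5 reaches brown preadipocytes as part of a wider lineage. m6A is placed on adenosines of messenger and long non-coding RNA by a methyltransferase complex around Mettl3 and Mettl14, is removed by demethylases and is read by YTH-domain proteins that affect RNA decay and translation. A higher signal in the bound fraction can therefore stand for more RNA of that gene, for a larger methylated share of it, or for both. The Sup values are given beside the IP values for this reason. With a single bound sample per genotype, differences in the recovery or labelling of the RNA cannot be told apart from these. In pooled cells, fewer cells of a type and less RNA per cell cannot be told apart either.

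The files pair 50 probes, each spotted 10 times, with an accession, and 45 of these matched a gene symbol. The other probes are used without a gene name. Of the 45 named genes, 41 were detected in both IP samples, Gabrg1 and Il2 in cKO IP only, 0 in control IP only, and Tyr and Kcnn2 in neither. Ptger3, the m6A writers and readers and the regulators of brown adipogenesis had no named probe, so the genotype was not checked from the targeted gene. Of the 7 markers of brown preadipocytes 0 had a named probe, and the sorted cell type was likewise not checked here. Of 37 marker genes of all listed cell types, the measured ones were the neural genes Mbp, Lhx1 and Gabrg1. The pixel signal above background had a median of 58.0 in cKO IP and 89.5 in control IP over array spots, and with 2 arrays the precision is limited.

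A level below is the processed signal of a probe divided by the median processed signal of the probes detected in both IP samples, which was 387 in cKO IP and 444 in control IP. An IP difference is log2 of the level in cKO IP minus log2 of the level in control IP, averaged over spots. Its SD is that between repeated spots, a technical spread that holds no variation between animals or pools. Pooled over the probes with an accession, it was 0.09 for the 31 brighter and 0.21 for the 14 dimmer ones. The probes without an accession had a single spot per array. Counts over all probes, their bounds and their extremes therefore have no spot SD. Levels of different probes cannot be set against each other, and the scaling takes out any shift common to all probes.

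The IP differences were recomputed under other processing, named where it matters. A Sup difference is formed in the same way, scaled to the median of the probes detected in both Sup samples. It was not recomputed under other processing, so its side of 0 holds for that scaling alone. Normexp is a background model that adds an offset and so draws the differences of dim probes toward 0, loess and Aquantile even out the dyes and the arrays, and a lowess on brightness removes the trend of the difference with the mean level. Other constants in place of the median were those of the array's ERCC and SPINKEIN control probes, those behind the authors' deposited table, or no constant. Settings without normexp, also that with no constant, start from the processed signal, whose dyes were already normalised within the array. The labels do not say whether ERCC or SPINKEIN RNA was added to these samples, and the ERCC constant rests on 5 probes.

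Most probes differed by less than 1.5-fold between the bound fractions. Across the 45288 probes, log2 levels in cKO IP and control IP correlated with a Pearson r of 0.973. This describes probes that are not independent and that differ widely in level. Of these probes, 73.6% lay within 1.5-fold. In Sup more did, 92.3% of the 43838 probes detected in all 4 signals. At least 2-fold higher in cKO IP were 1569 probes (3.46%), and at least 2-fold lower were 2082 probes (4.60%). Past 4-fold the balance was the other way, with 230 probes higher and 106 lower, and past 8-fold 14 were higher and 28 lower. The middle of the distribution ran from -0.26 at its 25th to 0.40 at its 75th percentile. These counts depend on the scaling, as given further on.

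Cav2 had the lowest IP difference of the named genes. It encodes caveolin-2, which with caveolin-1 coats the caveolae, the small pits of the plasma membrane that are abundant in fat cells. Its level was 1.03 in cKO IP, with spots from 0.898 to 1.16, against 4.27 in control IP, with spots from 4.06 to 4.52. The difference was -2.05 ± 0.13 (SD, n = 10 spots), or 4.13-fold lower, and 0.210% of all probes lay below it. In Sup the Cav2 difference was -0.61 ± 0.06 (SD, n = 9 spots), smaller than in IP, the fraction by which Cav2 was ranked.

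Bambi and Lhfp, which also encode membrane proteins, were lower in the bound fraction too. Bambi is a pseudoreceptor that dampens TGF-beta and BMP signalling, and its level was 3.41 in cKO IP (spots 3.08 to 3.66) against 6.89 in control IP (spots 6.69 to 7.08). Its IP difference was -1.02 ± 0.06 (SD, n = 10 spots), beside -0.21 ± 0.03 (SD, n = 9 spots) in Sup. The Bambi IP difference fell short of 2-fold with normexp, loess and Aquantile, at -0.97, and with the ERCC median, at -0.43. Lhfp, a member of a tetraspan protein family, had a level of 8.41 in cKO IP (spots 8.03 to 8.72) against 13.7 in control IP (spots 12.9 to 14.3). The Lhfp difference was -0.71 ± 0.05 (SD, n = 10 spots) in IP and 0.40 ± 0.05 (SD, n = 10 spots) in Sup. With the median scaling these lay on opposite sides of 0, and the Lhfp IP difference was -0.13 with the ERCC median. The spot ranges of the 2 IP samples did not overlap for Cav2, Bambi or Lhfp.

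Of 12 listed genes of the nuclear pore, transcription and cell cycle, 4 had a probe, and all 4 lay below 0 with the median scaling, as did 42.8% of all probes. E2f1, a transcription factor gene that drives entry into S phase, had a level of 0.297 in cKO IP (spots 0.250 to 0.341) against 0.770 in control IP (spots 0.705 to 0.827). The E2f1 difference was -1.38 ± 0.13 (SD, n = 10 spots), 2.59-fold lower, beside -0.33 ± 0.15 (SD, n = 10 spots) in Sup. E2f1 is dim, and its IP difference was -0.61 with normexp, -0.69 with normexp, loess and Aquantile and -0.79 with the ERCC median. Trp53rka, whose human relative TP53RK phosphorylates p53, had a level of 0.531 in cKO IP (spots 0.444 to 0.658) against 0.957 in control IP (spots 0.868 to 1.03). Its IP difference of -0.85 ± 0.27 (SD, n = 10 spots) came with a Sup difference of 0.40 ± 0.15 (SD, n = 10 spots). Like Lhfp, Trp53rka was lower in the bound and higher in the unbound fraction with the median scaling. Trp53rka is dim too, and its IP difference was -0.45 with normexp, -0.56 with normexp, loess and Aquantile and -0.27 with the ERCC median. Nup50, a nuclear pore protein gene, stood at -0.47 ± 0.06 (SD, n = 9 spots) in IP, and Taf1a, of the RNA polymerase I initiation factor, at -0.18 ± 0.05 (SD, n = 9 spots). The IP differences of Nup50 and Taf1a turned above 0 when scaled to the median of the ERCC probes. In Sup, Nup50 stood at 0.04 and Taf1a at 0.06.

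Of 12 listed genes of fatty acid oxidation, Cpt1a and Acaa2 had a probe, and both lay below 0 by less than 1.5-fold, where 42.8% of all probes lay below 0. Ppara, which is on no list, was lower, and Pex11a, the 1 measured gene of 8 listed for the peroxisome, was higher. Ppara encodes the nuclear receptor that switches on fatty acid oxidation genes, Cpt1a and Pex11a among its known targets. The Ppara level was 0.447 in cKO IP (spots 0.353 to 0.564) against 0.884 in control IP (spots 0.827 to 0.958), a difference of -0.98 ± 0.17 (SD, n = 10 spots). In Sup it differed by -0.72 ± 0.26 (SD, n = 10 spots), with 6 of 10 spots well above background in cKO and 10 of 10 in control, so that both fractions were lower by like amounts. Cpt1a, whose enzyme forms the acylcarnitines that mitochondria import, had a level of 4.32 in cKO IP and 6.09 in control IP, a difference of -0.49 ± 0.07 (SD, n = 9 spots). Acaa2, a mitochondrial thiolase gene, had a level of 9.49 in cKO IP and 13.1 in control IP, a difference of -0.47 ± 0.06 (SD, n = 9 spots). Sup was also lower for both, at -0.37 for Cpt1a and -0.16 for Acaa2. Pex11a, which acts in peroxisome division, had a level of 20.7 in cKO IP (spots 19.3 to 22.1) against spots of 13.1 to 14.6 in control IP. Its difference was 0.57 ± 0.11 (SD, n = 10 spots) in IP and -0.01 ± 0.06 (SD, n = 10 spots) in Sup, a higher bound signal at a like unbound one. Of these genes, Ppara and Pex11a kept their side under each of the alternatives, with Ppara at -0.49 with normexp and -0.40 with the ERCC median and Pex11a as low as 0.06 under the authors' constants, while Cpt1a and Acaa2 turned above 0 with the ERCC median.

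Actb, Apoe and Spats1 were the highest of the genes detected in both samples. Actb, the cytoskeletal beta-actin gene often used as a reference, had a level of 3.87 in cKO IP (spots 3.71 to 4.01) against 2.13 in control IP (spots 2.04 to 2.24). Its difference was 0.86 ± 0.07 (SD, n = 10 spots) in IP and 0.44 ± 0.06 (SD, n = 10 spots) in Sup, and 94.7% of probes lay below its IP difference. Spats1, a gene named for expression in spermatogenesis, differed by 0.66 ± 0.13 (SD, n = 8 spots) in IP and 0.29 ± 0.18 (SD, n = 10 spots) in Sup. Apoe, which encodes the lipid-carrying apolipoprotein E, had a level of 195 in cKO IP and 130 in control IP, a difference of 0.58 ± 0.05 (SD, n = 7 spots), with 0.26 in Sup. These genes were thus higher in both fractions and more so in the bound one, by which they were ranked. The signs held for Actb, Spats1 and Apoe under each of the alternatives, with Apoe as low as 0.07 and Spats1 as low as 0.15 under the constants of the authors' deposited table. Spats1 stood at 0.36 with normexp, loess and Aquantile.

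Creatine synthesis and glycolysis had 1 measured gene each, with smaller differences. Gamt, of creatine synthesis, stood at 0.20 ± 0.12 (SD, n = 10 spots), and its sign turned with no median scaling, the authors' constants, the SPINKEIN spots and the ERCC mean. Gpi1, a glycolytic enzyme gene, had levels of 315 in cKO IP and 270 in control IP, a difference of 0.22 ± 0.02 (SD, n = 9 spots). Its sign turned with normexp, the authors' constants, the ERCC mean, quantile normalisation and the lowess on brightness, where it was -0.16. In Sup, Gamt stood at -0.11 and Gpi1 at 0.35.

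Of 8 listed genes of endosomes and membrane traffic, 3 had a probe, and all 3 lay below 0 with the median scaling, as did 42.8% of all probes. The autophagy gene Atg3, on no list, encodes the enzyme that couples LC3 proteins to lipid. It had a level of 0.217 in cKO IP (spots 0.177 to 0.249) against 0.349 in control IP (spots 0.323 to 0.405). Its difference was -0.69 ± 0.18 (SD, n = 8 spots) in IP and -0.65 ± 0.24 (SD, n = 8 spots) in Sup, and with normexp the IP value was -0.08. Rab5a, whose GTPase organises early endosomes, had levels of 25.2 in cKO IP and 32.2 in control IP, a difference of -0.35 ± 0.04 (SD, n = 9 spots). Tm9sf1, of a family of membrane-spanning proteins, lay at -0.32 ± 0.06 over its 10 spots, and Uhrf1bp1l was closer to 0, at -0.13 ± 0.06 over its 10 spots (both SD). In Sup, Rab5a stood at -0.19, Tm9sf1 at 0.17 and Uhrf1bp1l at -0.17. The IP differences of Rab5a, Tm9sf1 and Uhrf1bp1l turned above 0 with the ERCC median. Alkbh4 stood at -0.53 ± 0.10 (SD, n = 10 spots), the co-chaperone gene Dnajc11 at -0.28 ± 0.07 (SD, n = 10 spots) and Carhsp1 at -0.33 ± 0.08 (SD, n = 10 spots). They too turned with the ERCC median and with no other alternative. In Sup, Alkbh4 stood at -0.24, Dnajc11 at -0.14 and Carhsp1 at 0.20.

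With the median scaling, Gsta4, Gsdmd, H2-Q7, Rps4l and Anxa8 differed little in the bound fraction and more in the unbound one. Gsta4, a glutathione transferase gene that acts on lipid peroxidation products, had levels of 3.96 in cKO IP and 4.11 in control IP, with overlapping spots. Its difference was -0.05 ± 0.08 (SD, n = 10 spots) in IP and 0.64 ± 0.05 (SD, n = 9 spots) in Sup. Gsdmd, the gasdermin D gene, whose product opens pores in pyroptosis, stood at 0.10 in IP and 0.50 in Sup. The class I histocompatibility gene H2-Q7 stood at -0.13 in IP and 0.40 in Sup, so that these 3 were higher in cKO Sup. Rps4l, a ribosomal protein S4-like gene, with 0.12 in IP and -0.63 in Sup, and the annexin gene Anxa8, with 0.03 in IP and -0.43 in Sup, were lower there. H2-M2, another class I gene, differed more in the bound fraction, at -0.33 in IP and 0.18 in Sup, and so did the peroxiredoxin gene Prdx2, at 0.19 in IP and -0.06 in Sup. The IP signs of Gsta4, H2-Q7 and H2-M2 turned with the ERCC median alone, and those of Gsdmd, Rps4l, Anxa8 and Prdx2 turned under 6, 8, 6 and 7 of 15 alternatives. The small IP difference of H2-Q7, a bright gene, depended on the processing. It was -0.39 with normexp, -0.31 with normexp, loess and Aquantile and -0.42 with the lowess on brightness.

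Gabrg1, a GABA receptor subunit gene known from the brain, was the named gene detected in 1 genotype in all of its spots. It was well above background in 10 of 10 spots in cKO IP, with a level of 0.361 (spots 0.303 to 0.447), and in 0 of 10 spots in control IP, with a measured level of 0.0506. Against the lowest level detected in control IP, 0.108, the bound Gabrg1 signal was at least 3.35-fold higher in cKO. On values after normexp, loess and Aquantile, where no swapped array allows dye bias to be removed, the bound was 0.60 (log2). In Sup it was well above background in 5 of 10 spots in cKO and in 0 of 10 in control. The cytokine gene Il2 was at the edge of detection, with 5 of 10 spots in cKO IP and 4 of 10 in control IP, and its spot ranges overlapped.

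The other neural and olfactory genes lay closer to 0. The transcription factor gene Lhx1, known from neural and kidney development, stood at 0.38 ± 0.19 (SD, n = 10 spots), and the olfactory receptor gene Olfr166 at 0.38 ± 0.08 (SD, n = 10 spots). Both turned below 0 under the authors' constants alone. Olfr1307, another olfactory receptor gene, lay at -0.02 ± 0.17 (SD, n = 10 spots). The granin gene Chgb lay at 0.06 ± 0.28 (SD, n = 10 spots) and turned under 4 of 14 alternatives. Mbp, of myelin, lay at -0.21 ± 0.20 (SD, n = 8 spots) in IP and at 0.45 in Sup, with overlapping spot ranges in IP. In Sup, Lhx1 stood at 0.24, Olfr166 at 0.12, Olfr1307 at 0.01 and Chgb at -0.17.

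Over the 41 genes detected in both IP samples, 3 were at least 2-fold lower in cKO, which is 7.32% against 4.60% of all probes, and 0 were at least 2-fold higher against 3.46% of all probes. At 1.5-fold, 7 were lower (17.1%, against 12.6% of all probes) and 2 were higher (4.88%, against 13.9%). The median of the named genes was -0.13, and that of all probes 0.09. The 32 genes within 1.5-fold ran from -0.53 to 0.58, with 17 below 0 and 15 above. In 27 genes the spots of the 2 samples did not overlap, and in the other 14 they did, up to a difference of 0.38. The IP difference was farther from 0 than the Sup difference in 30 of 41 genes. With the median scaling, IP and Sup lay on opposite sides of 0 in 18 genes. Of these, Trp53rka and Lhfp were at least 1.5-fold apart in IP. The shares of all probes that go with the counts of 30 and 18 are not given, so neither count can be read as a trait of the named genes. Over the 43838 probes detected in all 4 signals, IP differences spread more widely too, with an SD of 0.58 against 0.36 in Sup.

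The fractions were also compared over all 43838 probes detected in all 4 signals. The SD of the difference was 0.58 in IP and 0.36 in Sup, and the differences correlated with a Pearson r of 0.514 across probes, which share arrays and pools and are not independent. At least 2-fold higher in Sup were 0.979% and at least 2-fold lower were 0.639% of these probes. Of the 1981 that were at least 2-fold lower in cKO IP, 73.7% lay within 1.5-fold in Sup, 78.3% lay below 0 there and 9.69% were 2-fold lower there as well. Of the 1476 that were at least 2-fold higher in cKO IP, 50.9% lay within 1.5-fold in Sup, 90.6% lay above 0 there and 20.5% were 2-fold higher there. Over all 43838 probes, 92.3% lay within 1.5-fold in Sup, 46.5% lay below 0 and 53.5% above. Both sets thus leaned in Sup to the side they took in IP, and the difference between them was not tested. Both sets were picked on their IP difference, which by itself favours a smaller difference in Sup, and no set was picked on Sup.

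The Sup difference was larger where the IP difference was larger. Where IP was 2- to 4-fold lower, the median Sup difference was -0.26 over 1884 probes, with quartiles of -0.56 and -0.03, and where it was 4- to 8-fold lower, -1.13 over 71 probes. All 26 probes at least 8-fold lower in IP were also at least 2-fold lower in Sup, with a median of -3.20. Where IP lay within 2-fold, the median Sup difference was 0.02 over 40381 probes. On the higher side the medians were 0.49 over 1267 probes, 1.14 over 198 probes and 1.81 over the 11 probes at least 8-fold higher in IP, all 11 of which were at least 2-fold higher in Sup. Of the 1884 probes 2- to 4-fold lower in IP, 1461 were also below 0 in Sup, mostly by less than 1.5-fold: 76.4% of the 1884 lay within 1.5-fold in Sup, against 94.8% where IP lay within 2-fold.

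The extreme probes have no gene name in the files. ASMM10EP3A116861214 was highest, with a level of 22.9 in cKO IP against 1.43 in control IP, and a difference of 3.85 in Sup. ASMM10EP3A113972547 was lowest, with a level of 1.95 in cKO IP against 153 in control IP, a difference of -6.29, and -10.21 in Sup. Its processed signal in Sup was 764 in cKO and 1024148 in control, and saturation was not checked in Sup. Both probes had a single spot per array, so a spot artefact cannot be told apart from a difference. The letters EP3 in these names belong to the array's naming, and nothing in the files ties them to the receptor.

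Probes detected in 1 genotype only were counted as bounds. The 924 probes of cKO IP only were 1.52% of all probes and the 2647 of control IP only 4.36%. The mark of well above background was also given to 6 of 45 spots named MM9NEGATIVE in cKO IP and to 7 of 45 in control IP. Detection in 1 genotype only therefore says little by itself. The lowest detected level was 0.133 in cKO IP and 0.108 in control IP. For 666 of the 2647 control-only probes the control level did not exceed what could be detected in cKO, so no fold is given, and for the other 1981 the median bound was 1.25-fold. All 924 cKO-only probes had a bound above 1, with a median of 1.60-fold. A bound of at least 2-fold was reached by 183 probes higher in cKO and 201 lower in cKO. These counts depend on the scaling, with 115 higher and 318 lower without a constant, 57 and 647 under the authors' constants, and 3 and 21 with normexp, loess and Aquantile.

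The Sup side of these probes can be set beside that of the 43838 probes detected in all 4 signals, of which 53.5% lay above 0 and 46.5% below. Of the 183 higher ones, 76 were detected in Sup of both genotypes, 56 of them higher in cKO Sup, and a further 57 were detected in cKO Sup only. Of the 201 lower ones, 101 were detected in Sup of both genotypes, 80 of them lower in cKO Sup, and a further 44 were detected in control Sup only. The largest bounds were those of ASMM10EP3A100053585, at least 14.2-fold higher in cKO IP, and ASMM10EP3A111310672, at least 16.6-fold lower.

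The balance of higher and lower probes differed with brightness. In the dimmest of 10 groups of probes, ordered by mean IP level, 2.36% were 2-fold higher and 0.618% lower. In the eighth group 4.13% were higher and 7.11% lower, and in the brightest group, with levels from 17.6, 4.17% were higher and 2.63% lower. The median difference was 0.32 in the brightest group and between 0.03 and 0.10 in the others. Relative to a lowess on brightness, the bright genes therefore lay lower: H2-Q7 stood at -0.42, Uhrf1bp1l at -0.42, Rab5a at -0.52, Rps4l at -0.10 and Apoe at 0.26. Pex11a stood at 0.45 on that scale, beside 0.57 with the median scaling. Cav2 stood at -2.11, Bambi at -1.09 and E2f1 at -1.42 on that scale.

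Which side held more probes depended on the constant used for scaling. With the median scaling, 43.0% of the probes past 2-fold were higher in cKO IP. The share was 40.3% with the median of all array probes, 38.7% with quantile normalisation, 34.5% with the lowess on brightness, 36.6% with normexp, loess and Aquantile and 32.3% with normexp alone. Constants that do not centre the probes gave 21.8% with no median scaling, 20.5% with the SPINKEIN spots, 17.0% with the mean of 5 ERCC probes, 7.17% with the constants of the authors' deposited table and 96.8% with the ERCC median. They moved the median of all probes by -0.20, -0.22, -0.27, -0.51 and 0.58 in that order. Among 43 named genes, 12 kept their side under every alternative, Cav2, E2f1, Bambi, Ppara, Trp53rka, Lhfp and Atg3 on the lower side and Gabrg1, Actb, Spats1, Apoe and Pex11a on the higher one, and 31 turned under at least 1. Cav2 ranged from -2.56 to -1.46 and stayed past 2-fold. Some alternatives only leave probes out, which cannot move a gene's value, and each constant shifts all probes alike. A kept side therefore counts for less than the number of alternatives may imply.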

How the data were processed

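Agilent Feature Extraction 11.0.1.1 produced the array files, per the file headers and the submitters' processing notes. The deposited processed signal is an intensity on a linear scale with background subtracted and dyes normalised within the array; the deposited pixel medians are raw intensity. The scanner software's 0 or 1 marks (outlier, saturated, well above background) were used as deposited, and 0 red spots were saturated. Saturated spots of the Sup channel were not counted. The authors' deposited table holds log2 values and served for its scaling constants alone, 12.23 for cKO IP and 11.92 for control IP. How those constants arose is not stated in the labels.

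Of 62976 spots, 1439 had a control type, 396 were treated as controls by name, and 37 were left out for a red outlier flag on either array. A probe's log2 values were averaged over its spots. Symbols came from RefSeq (GRCm38.p6) through accessions. A bound is the detected level over the higher of the probe's own level and the lowest detected level in the other sample, on median-scaled signals. With 1 sample per genotype no test was run, and 2-fold is a rule of size. All genes with a symbol were eligible for naming, with fuller values for those at least 1.5-fold apart. Of probes with no symbol, 1 per direction was named for its difference and 1 for its bound. The members, the 24 gene lists and the comparisons were chosen with earlier results of these data known; 28 of 190 listed genes had a probe. The calculation was tested on simulated data. Alternatives used limma 3.58.1 under R 4.3.3 (normexp with an offset of 50, loess, Aquantile); the rest ran in Python 3.11.15 with pandas 2.3.3, numpy 2.4.6, statsmodels 0.14.6 and scipy 1.17.1.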

Additional observations from a re-analysis of the deposited data

How the results depend on the processing

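With 1 sample per genotype no replicate could be left out, and no paired analysis was possible because each group held 1 sample. Probes at least 2-fold higher and lower in cKO IP, 1569 and 2082 as reported, were 610 and 1279 with normexp, 643 and 1113 with normexp, loess and Aquantile, 953 and 3418 with no median scaling, 537 and 6949 with the authors' constants, 923 and 3585 with the SPINKEIN spots, 10733 and 358 with the ERCC median and 830 and 4044 with the ERCC mean. They were 769 and 1014 among 21005 probes brighter than the median in both samples, 6279 and 5690 at 1.5-fold, and 230 and 106 at 4-fold. Among probes within 1.5-fold in Sup, 751 were higher and 1460 lower. The ERCC mean and the Sup limit were chosen after seeing the data. The other 8 alternatives kept both counts within 1.5 times. Of the probes reported as higher, 41.0% were still 2-fold higher with normexp, loess and Aquantile, and of those reported as lower 50.3% were still 2-fold lower. That setting left 0 on the other side of 0. Its offset shrinks dim probes, but the calls kept were 643 higher and 1047 lower, fewer than the 919 and 1301 reported among the 22644 brighter probes alone. Why calls fell short was not tested. Bounds of at least 2-fold, 183 for cKO only and 201 for control only, became 3 and 21 with normexp, loess and Aquantile, 115 and 318 with no median scaling and 57 and 647 with the authors' constants, and the first became 118 with the floor at the 1st percentile. E2f1 was short of 2-fold with normexp (-0.61), with loess and Aquantile (-0.69) and with the ERCC median (-0.79), and Bambi with loess and Aquantile (-0.97) and the ERCC median (-0.43). Signal over background limits the dim probes: among 308 negative control spots of the scanner design, 7 were well above background in cKO IP and 5 in control IP. Among the 45 spots named MM9NEGATIVE, 6 were in cKO IP and 7 in control IP.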

Other observations

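The 3 series of unnamed probes differed in their balance. Of the ASMM10SM probes detected in both IP samples, 4.70% were 2-fold higher and 1.31% lower in cKO, with a median difference of 0.19 over 2830 probes. Of the ASMM10EP3A probes 3.31% were higher and 5.09% lower, with a median of 0.07 over 36801 probes, and of the ASMM10EP3B probes 3.87% were higher and 2.99% lower, with a median of 0.14 over 5612 probes. These differences were not tested, and the series also differed in brightness, with median levels of 0.739, 1.07 and 0.765 in the order given.

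Over 32 blocks of the array surface, each with 1308 to 1478 probes, the block median of the IP difference ran from -0.01 to 0.22. The share of probes 2-fold higher in cKO ran from 1.80% to 7.88% and that of probes 2-fold lower from 3.15% to 5.52%. The part of place on the array in the counts was not tested. Spots named MM9NEGATIVE were well above background in 6 of 45 in cKO IP and 7 of 45 in control IP.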
